A study of Saccharomyces cerevisiae with 6 samples.

Results

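Genes of the yeast cell wall and of the pathway that guards it were followed in Saccharomyces cerevisiae exposed to tetrachloroethylene, a chlorinated solvent. The set was a given list of 33 genes, matched by gene symbol in the annotation of the array's features, and the rule holds no measured value, but the list was drawn up with earlier results of these data known. Of the 33 genes, 31 had 1 feature each and a value in every hybridisation, out of 5349 genes tested in all. FKS1 and GSC2, the catalytic subunits of glucan synthase, had no feature under these names and were not analysed here. The cells belonged to S288C, a laboratory strain, and grew in YPD, a rich glucose medium, at 25 °C. The treated group received 3.3 mM tetrachloroethylene for 2 h, and the reference on every array was the exponentially growing culture before the addition, with no other agent and no named mutation in either. The RNA was polyadenylated, and treated cDNA carried Cy5 and reference cDNA Cy3 on 3 arrays of 2 colours from independent biological samples, each read with a high and a low power of the laser. The labels give the same dye orientation for every array and list no untreated sample at 2 h, so dye, elapsed time and solvent cannot be told apart.

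The wall of budding yeast is a network of glucan and chitin fibres to which mannoproteins are attached. Most of these proteins hang on glucan through the remnant of a glycosylphosphatidylinositol (GPI) anchor, while PIR proteins are bound directly to glucan through their internal repeats. Wall damage is sensed by membrane proteins such as Wsc2 and Mid2, which act through Pkc1 and a kinase cascade on the mitogen-activated kinase Slt2, and Slt2 in turn activates the transcription factor Rlm1. Chitin synthases, chitin-glucan crosslinking enzymes and several wall proteins are induced along this route when the wall is weakened. TIR and DAN mannoproteins are known for their expression in cold or without oxygen.

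Values are log2 ratios of treated over untreated cells, so that 1 stands for a 2-fold higher and -1 for a 2-fold lower level. The base and the direction of the ratio are not stated in the labels and were taken from convention and from the dyes, and every sign below rests on that reading. The scans of a hybridisation were averaged, n is 3 hybridisations, and errors are SD over them. A gene was called when its adjusted p by limma, with Benjamini-Hochberg adjustment over all 5349 genes, was under 0.05. Near-identical genes cannot be separated by arrays of cDNA, so single values of the PIR, TIR, DAN and PAU families are uncertain.

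Most of the set did not pass the test. Of 31 measured genes, 5 fell (CHS3, GAS1, UTR2, CHS2 and ECM33), 1 rose (SRL3) and 25 did not pass. Over all genes tested 11.9% fell, 9.14% rose and 21.0% were called in either direction, against 16.1%, 3.23% and 19.4% of the set. The median of the gene means was 0.00 in the set and -0.02 over all genes. At an unadjusted p under 0.05 there were 13 genes of the set, 6 higher and 7 lower, beside 38.6% of all genes. A value above 0 in all 3 hybridisations was found for 9 of the 31, KDX1 among them with 0.00 in hybridisation 1, where 27.5% of all genes had one. A value below 0 in all 3 was found for the same number of genes, beside 31.3% of all genes. In these bulk cultures fewer cells that express a gene and less RNA per cell cannot be told apart.

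**Figure D1:**
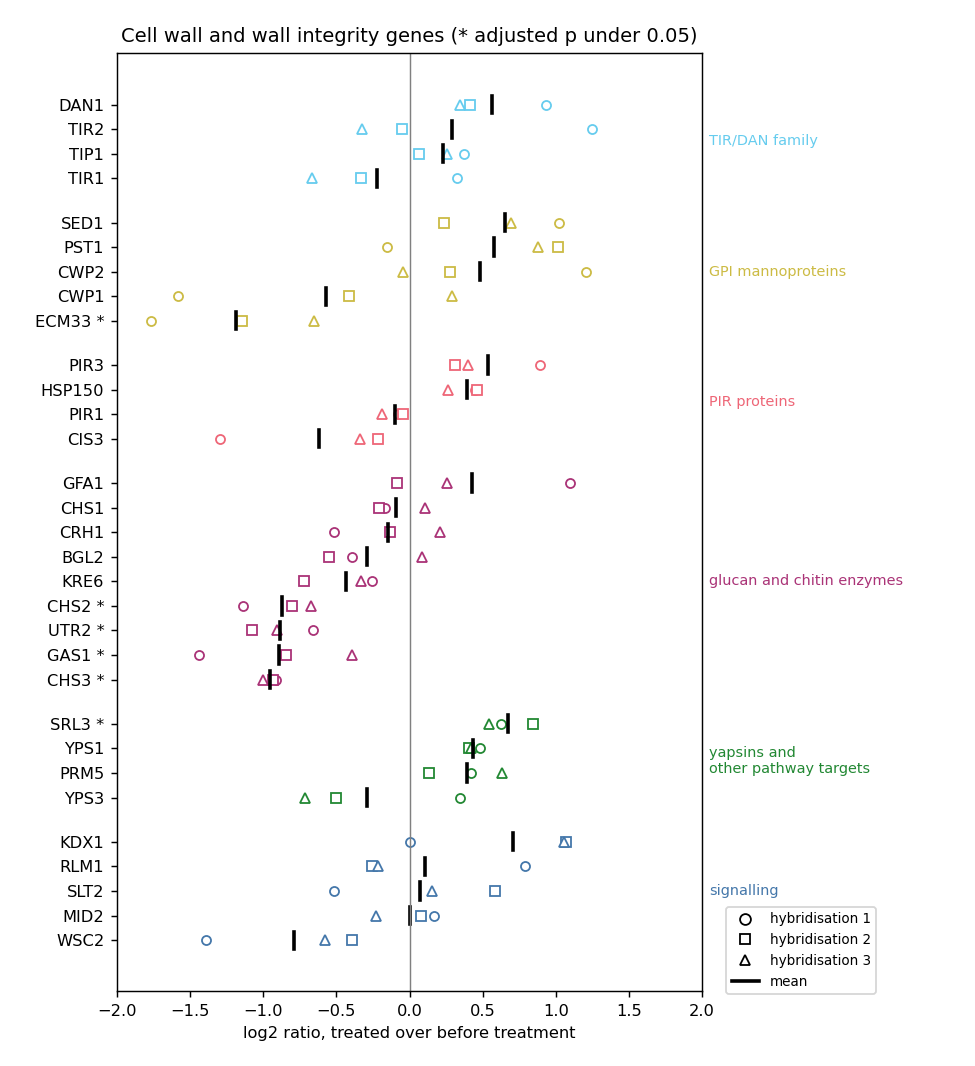
Log2 ratio of treated over untreated cells (horizontal axis) for each of the 31 measured genes in hybridisations 1, 2 and 3, with the mean as a black bar and an asterisk at an adjusted p under 0.05 by limma. Genes are grouped by role, and CHS3, GAS1, UTR2, CHS2 and ECM33 lie below 0 and SRL3 above 0 in all 3 hybridisations.

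The enzymes that build and remodel glucan and chitin held 4 of the 5 genes that fell. Of 9 measured, 4 fell (44.4%), 0 rose and 5 did not pass by limma, where 11.9% of all genes fell and 9.14% rose. At an unadjusted p under 0.05 there were 4 lower and 0 higher, beside 38.6% of all genes in either direction. Of the 9 means, 8 were below 0. The median over the class was -0.52 in hybridisation 1, -0.72 in hybridisation 2 and -0.33 in hybridisation 3, or -0.52 ± 0.19 (SD, n = 3), where the median of all genes was -0.04 ± 0.04. No other class of the set had its median below 0 in all 3 hybridisations.

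CHS3 (YBR023C), the catalytic subunit of the enzyme that makes most of the chitin of the lateral wall, had log2 ratios of -0.91, -0.93 and -1.004. The averaged values differed little between hybridisations, and the mean of -0.95 ± 0.05 stood for a 1.93-fold lower level (adjusted p = 0.0163 by limma, n = 3). The high and low power scans behind them lay further apart, at -0.76 and -1.11 in hybridisation 2 and -0.74 and -1.26 in hybridisation 3. In hybridisation 1 the value of CHS3 came from the high power scan alone. CHS2 (YBR038W), which lays down the chitin of the primary septum at division, had -1.14, -0.81 and -0.67, a 1.83-fold lower level at -0.87 ± 0.24 (adjusted p = 0.0234 by limma). CHS1, the third chitin synthase and a repair enzyme at the separating daughter cell, had -0.17, -0.21 and 0.10. Its values lay on either side of 0 and it did not pass (adjusted p = 0.747), with a 95% interval of the mean from -0.53 to 0.34. GFA1, which makes glucosamine phosphate and so feeds chitin synthesis, had 1.10 in hybridisation 1, -0.08 in hybridisation 2 and 0.26 in hybridisation 3. Its mean of 0.42 ± 0.61 was the only one above 0 in the class, and it rested on hybridisation 1 (adjusted p = 0.270 by limma).

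UTR2 (YEL040W) and CRH1 encode crosslinking enzymes of one family, which transfer chitin chains to glucan. UTR2 had -0.66, -1.08 and -0.91, all below 0, and fell 1.84-fold (-0.88 ± 0.21, adjusted p = 0.0216 by limma). CRH1 had -0.52, -0.13 and 0.21, with hybridisations on both sides of 0 (-0.15 ± 0.36, adjusted p = 0.634). GAS1 (YMR307W), a GPI-anchored enzyme that elongates glucan chains, had -1.44, -0.85 and -0.39. All 3 values were below 0 but spread by about a log2 unit, and the mean fell 1.86-fold (-0.89 ± 0.53, adjusted p = 0.0430 by limma). KRE6, needed for the branched form of glucan that links wall proteins, had -0.26, -0.72 and -0.33. It was below 0 in every hybridisation without passing (-0.43 ± 0.25, adjusted p = 0.144). BGL2, a major glucanase and transferase of the wall, had -0.40, -0.55 and 0.08, and its adjusted p was 0.339. In hybridisations 2 and 3, the values of UTR2, GAS1 and BGL2 came from the low power scan alone.

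GPI mannoproteins spread more widely than any other class, from -1.19 to 0.65 in mean log2 ratio. Of 5 measured, 1 fell (20%), 0 rose and 4 did not pass by limma, where 11.9% of all genes fell and 9.14% rose. ECM33 was lower and SED1 higher at an unadjusted p under 0.05, beside 38.6% of all genes in either direction. ECM33 (YBR078W), which is needed for an ordered outer mannoprotein layer, had -1.77, -1.14 and -0.65. It was below 0 in every hybridisation and lowest of the set, 2.28-fold lower at -1.19 ± 0.56 (adjusted p = 0.0210 by limma), the mean ranking 164th from the lowest of 5349. PST1, the paralogue of ECM33 and a known target of Rlm1, had -0.15, 1.01 and 0.88. Hybridisation 1 stood apart from the other two, and PST1 did not pass over all 3 (0.58 ± 0.64, adjusted p = 0.156). SED1, an abundant stress-induced wall protein, had 1.02, 0.23 and 0.70, above 0 in all 3 without passing (0.65 ± 0.40, adjusted p = 0.0723). CWP1 and CWP2 are small wall proteins encoded side by side. CWP1 had -1.59, -0.41 and 0.29, and CWP2 had 1.21, 0.28 and -0.04. The neighbours lay far apart with opposite signs in hybridisation 1 and with the order turned in hybridisation 3, and neither passed (adjusted p = 0.268 for CWP1 and 0.232 for CWP2 by limma).

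None of the 4 PIR genes passed by limma, and PIR3 and CIS3 had an unadjusted p under 0.05. Of all genes, 21.0% passed and 38.6% had such an unadjusted p. As averages of scans, each of the 4 genes kept its sign in all 3 hybridisations. PIR3 had 0.89, 0.31 and 0.40 (0.53 ± 0.31, adjusted p = 0.0987) and HSP150, a heat-inducible secreted member, had 0.45, 0.46 and 0.26 (0.39 ± 0.11, adjusted p = 0.155). The scans of HSP150 in hybridisation 2 were 0.04 at high and 0.88 at low power. PIR1 had -0.08, -0.04 and -0.19 (-0.10 ± 0.07, adjusted p = 0.701), with a 95% interval from -0.52 to 0.32. The high and low power scans of PIR1 had opposite signs in every hybridisation (-0.17 and 0.01, -0.19 and 0.10, 0.09 and -0.46). CIS3 had -1.30, -0.22 and -0.34 (-0.62 ± 0.59, adjusted p = 0.124), and the low mean rested on hybridisation 1. Its scans in hybridisation 2 were -0.51 at high and 0.07 at low power. The genes of the family thus lay on either side of 0, with a class median of 0.12 ± 0.07.

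None of the 4 TIR and DAN genes passed over the 3 hybridisations by limma, where 21.0% of all genes did. DAN1 was the 1 gene at an unadjusted p under 0.05, beside 38.6% of all genes. DAN1, which is expressed in cells without oxygen, had 0.93, 0.41 and 0.35, above 0 in each (0.57 ± 0.32, adjusted p = 0.0884). TIP1, a cold-shock mannoprotein, had 0.37, 0.07 and 0.26 (0.23 ± 0.15, adjusted p = 0.390). TIR2 had 1.24, -0.05 and -0.33, and TIR1 had 0.33, -0.33 and -0.66. In both of these related genes hybridisation 1 alone was above 0, and their means were 0.29 ± 0.84 and -0.22 ± 0.50 (adjusted p = 0.532 and 0.520 by limma). The class median was 0.65 in hybridisation 1 and 0.01 and -0.04 in the other two.

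**Figure D2:**
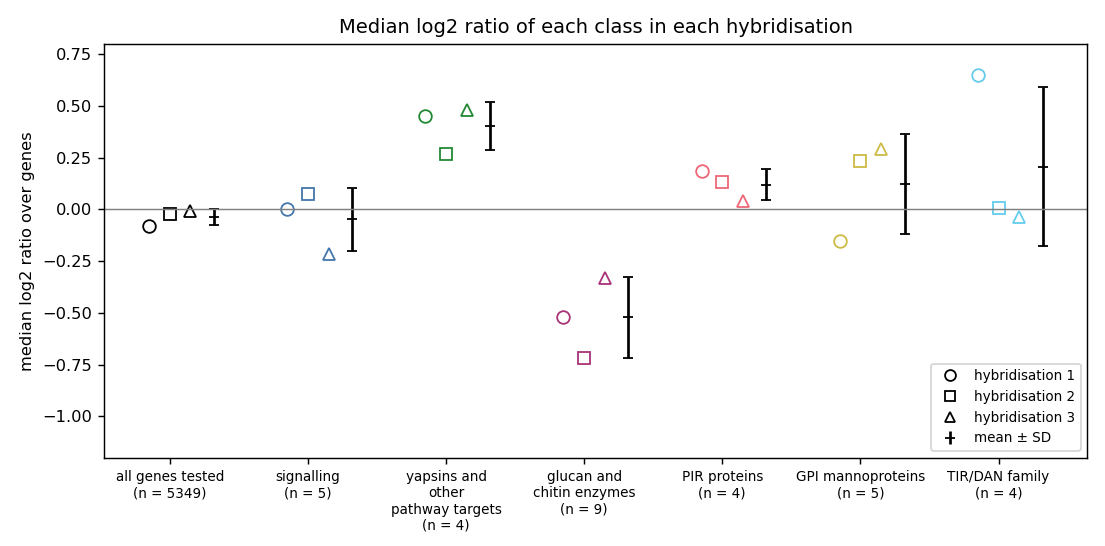
Median log2 ratio over the genes of each class (vertical axis) in hybridisations 1, 2 and 3, with the mean and SD over hybridisations beside them and all 5349 genes at the left. The glucan and chitin enzymes lie between -0.72 and -0.33, and the TIR/DAN genes are at 0.65 in hybridisation 1 and near 0 in the other two.

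The 5 signalling genes did not pass over the 3 hybridisations by limma, where 21.0% of all genes did. At an unadjusted p under 0.05 there were 2 of them, KDX1 and WSC2, beside 38.6% of all genes. SLT2, the kinase at the end of the cascade, had -0.52, 0.59 and 0.16, with no shared sign (0.08 ± 0.56, adjusted p = 0.850). RLM1, the transcription factor that Slt2 activates, had 0.79, -0.26 and -0.22, again with hybridisation 1 on the other side of 0 (0.11 ± 0.59, adjusted p = 0.790). KDX1, a kinase-like paralogue of SLT2 whose transcription depends on Rlm1, had 0.00, 1.07 and 1.05. It was the highest mean of the set at 0.71 ± 0.61 but did not pass (adjusted p = 0.0941). In hybridisation 1 the value of KDX1 came from the high power scan alone. Its high and low power scans were 0.86 and 1.28 in hybridisation 2 and 0.78 and 1.33 in hybridisation 3. WSC2 and MID2 encode sensors in the plasma membrane. WSC2 had -1.39, -0.39 and -0.58, below 0 throughout and just outside the threshold (-0.79 ± 0.53, adjusted p = 0.0601). MID2 had 0.17, 0.08 and -0.23, at 0.00 ± 0.21 (adjusted p = 0.991), with a 95% interval from -0.44 to 0.45.

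Of the yapsins and other genes induced with the pathway, SRL3 rose and the other 3 did not pass by limma, where 9.14% of all genes rose. SRL3 (YKR091W), known as a regulator of entry into the cell cycle and a cell wall stress target rather than a wall component, had 0.63, 0.84 and 0.54. Its mean of 0.67 ± 0.15 was a 1.59-fold higher level (adjusted p = 0.0432 by limma), and the call held under 10 other settings and ended under 6, such as trend and robust moderation (0.0663). Among settings that measured them, the genes that fell also lost calls. The call held under 9 and ended under 4 for CHS2, and under 8 and 4 for both GAS1 and UTR2. These counts were 10 and 3 for CHS3 and 10 and 2 for ECM33. PRM5, a membrane protein of unknown function induced with wall stress, had 0.42, 0.14 and 0.63 (0.40 ± 0.25, adjusted p = 0.176). YPS1 and YPS3 encode GPI-anchored aspartic proteases of the cell surface and lie next to each other. YPS1 had 0.48, 0.41 and 0.42, close together as averages of scans, but did not pass (0.44 ± 0.04, adjusted p = 0.117). Its scans in hybridisation 2 were 0.03 at high and 0.78 at low power. YPS3 had 0.34, -0.50 and -0.72 (-0.29 ± 0.56, adjusted p = 0.423).

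Related genes were set against each other within each array. In 11 pairs of related genes the difference of log2 ratios had the same sign in all 3 hybridisations for 9, and with 3 arrays the exact two-sided sign-flip permutation test cannot go below 0.25, which those 9 reached (adjusted p = 0.306 over the 11 pairs). CHS1 exceeded CHS3 by 0.75, 0.73 and 1.11, the steadiest of these differences in relation to its size (0.86 ± 0.21). HSP150 exceeded CIS3, its neighbour in the genome, by 1.75, 0.68 and 0.60. KDX1 exceeded SLT2 by 0.52, 0.48 and 0.90, although each gene on its own varied widely. CRH1 exceeded UTR2 by 0.14, 0.95 and 1.11, and TIR1 lay below TIR2 by 0.92, 0.28 and 0.34. The exceptions were CHS2 minus CHS3 (-0.22, 0.13 and 0.33) and CWP1 minus CWP2 (-2.79, -0.69 and 0.33). The gene table of assembly R64 places 4 pairs of the set side by side, PIR1 with PIR3, HSP150 with CIS3, CWP1 with CWP2 and YPS1 with YPS3. In each of these 4 pairs the mean log2 ratios of the neighbours had opposite signs. None of these genes was called, and CWP1, CWP2 and YPS3 had values on both sides of 0.

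Much of the spread lay between hybridisation 1 and the other two. Across the 31 genes, Pearson's r was 0.84 between hybridisations 2 and 3, 0.56 between 1 and 2 and 0.43 between 1 and 3, as a description of genes that share arrays. Over all 5349 genes the same values were 0.84, 0.56 and 0.56. In 8 of the 31 genes (25.8%, against 14.6% of all genes) hybridisation 1 differed from the mean of the other two by 1 or more on the log2 scale. It was lower there for CWP1 (by a difference of -1.53), PST1 (-1.10), KDX1 (-1.06) and CIS3 (-1.02), and higher for TIR2 (1.44), CWP2 (1.09), RLM1 (1.02) and GFA1 (1.01). What sets hybridisation 1 apart was not tested, since the labels name no difference between the arrays.

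**Figure D3:**
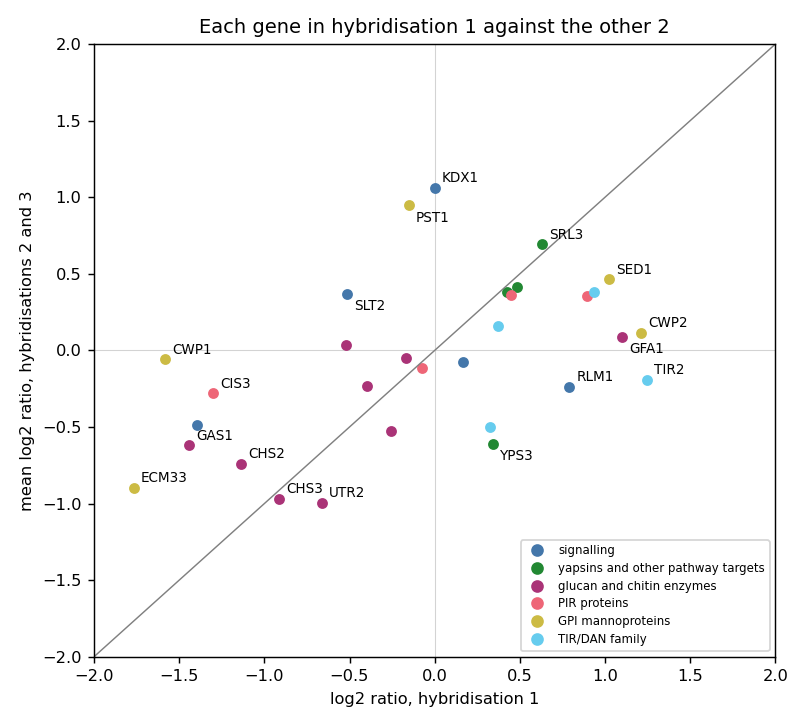
Log2 ratio in hybridisation 1 (horizontal axis) against the mean log2 ratio of hybridisations 2 and 3 (vertical axis) for each of the 31 genes, coloured by class, with the diagonal as a grey line. CHS3 and SRL3 lie near the diagonal, while KDX1 and PST1 are near 0 on the horizontal and near 1 on the vertical axis.

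The calls depended on single arrays. With 2 arrays each gene had 1 residual degree of freedom, to which limma added prior degrees from all genes. Without hybridisation 1 that prior was infinite, so 1 pooled variance replaced each gene's own spread, and a gene was called by the size of its mean alone. The calls of that setting therefore hold no evidence from the spread of a gene's own replicates. The calls came to 4 genes of the set higher and 9 lower, where 20.8% and 21.9% of all genes were called, and the 6 genes called over the 3 hybridisations were among them. The means of hybridisations 2 and 3 were 1.06 for KDX1, 0.95 for PST1 and 0.46 for SED1, and -0.61 for YPS3, -0.52 for KRE6, -0.50 for TIR1 and -0.49 for WSC2, the other genes counted there. Without hybridisation 2, where the median prior was 48.2 degrees of freedom, 0 genes rose and ECM33 alone fell (-1.21), beside 6.97% and 7.35% of all genes. An unadjusted p under 0.05 was found there for 8 of the 31, beside 1478 of all 5349 genes. Without hybridisation 3, with a prior of 5.85, 0 rose and 0 fell by limma, and over all genes 0.0187% rose and 0% fell. There 8 of the 31 had an unadjusted p under 0.05, beside 1314 of all 5349 genes.

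The scans of each array could be set against each other in most of these genes. A value in all 6 scans was present for 18 of the 31, in 5 scans for 10 and in 4 scans for 3 (UTR2, GAS1 and BGL2). The high power scan lacked 7 of the 31 genes in hybridisation 2 (22.6%, against 13.3% of all genes) and 4 in hybridisation 3 (12.9% against 9.33%). The low power scan lacked 5 in hybridisation 1 (16.1% against 35.5%), and no value was missing from the other 3 scans. The median absolute difference between scans was 0.15 in hybridisation 1, 0.30 in hybridisation 2 and 0.27 in hybridisation 3, and the scans had opposite signs for 1, 9 and 5 genes. The widest gaps were those of TIR2 in hybridisation 1 (0.61), CHS1 in hybridisation 2 (0.88) and CWP2 in hybridisation 3 (0.67). None of these 3 genes was called, while CHS3, which was called, had a gap of 0.52 in hybridisation 3.

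**Figure D4:**
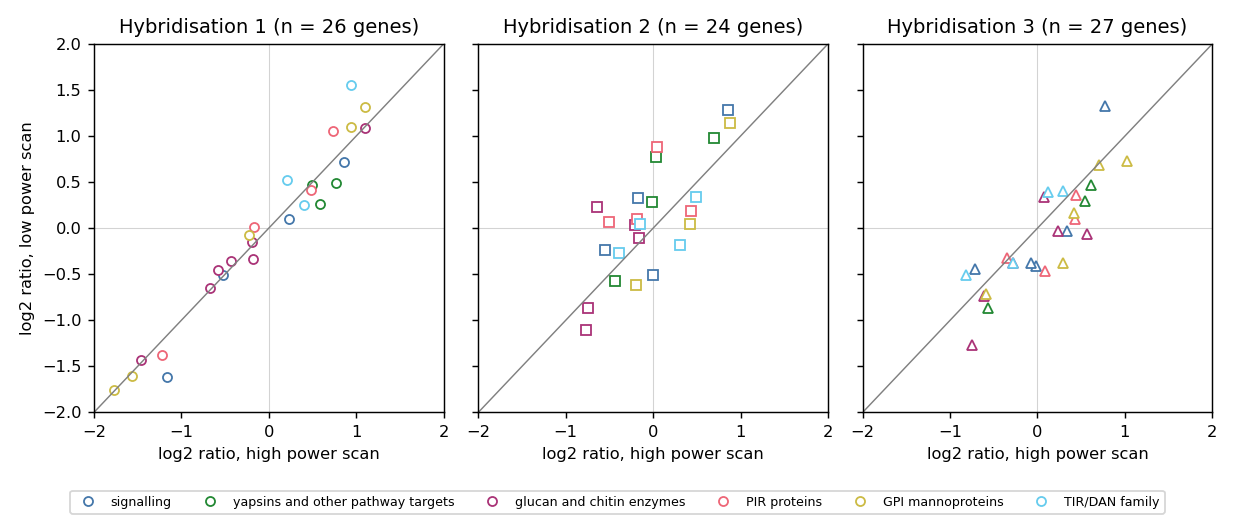
Log2 ratio in the high power scan (horizontal axis) against the low power scan (vertical axis) of the same array, for the 26, 24 and 27 genes of the set with both values in hybridisations 1, 2 and 3, coloured by class, with the diagonal in grey. Points lie closest to the diagonal in hybridisation 1, and 9 of 24 have opposite signs in hybridisation 2.

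Other genes of the wall were taken from a list of 83, of which 76 were measured. Among these 8 rose and 7 fell (10.5% and 9.21%), beside 9.14% and 11.9% of all genes, and their median was -0.02. Of 22 other glucan genes, 4 fell (18.2%), 0 rose and 18 did not pass by limma, and the median was -0.38. At an unadjusted p under 0.05 there were 5 lower and 1 higher, beside 38.6% of all genes in either direction. SCW10, a glucanase-like wall protein, was lowest with -1.78, -1.85 and -1.25 (-1.63 ± 0.32, adjusted p = 0.00897). SIM1 (-1.08 ± 0.34), a wall protein of the SUN family, GAS3 (-1.07 ± 0.52), a relative of GAS1, and CRR1 (-0.87 ± 0.23), a relative of CRH1 and UTR2 that acts in the spore wall, also fell. Of 11 other genes of chitin synthesis, transport and breakdown, 0 were called by limma and 1, the chitinase-like CTS2, had an unadjusted p under 0.05. SKT5, which activates Chs3, had -0.65, -0.13 and -0.48 (adjusted p = 0.159), and CHS5, CHS6 and CHS7, which carry Chs3 to the surface, had means of 0.19, 0.09 and 0.07.

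Among 21 other signalling genes 2 rose and 1 fell (9.52% and 4.76%), beside 9.14% and 11.9% of all genes. ROM1 had 1.26, 1.08 and 1.01 (1.12 ± 0.13, adjusted p = 0.0120), and BAG7 had 1.86, 1.26 and 1.50 (1.54 ± 0.31, adjusted p = 0.00928). LRG1 fell with -1.25, -1.02 and -0.59 (-0.95 ± 0.34, adjusted p = 0.0222). PKC1 had values of -0.01, -0.03 and -0.04 and WSC1, named SLG1 in the current table, had -0.71, -0.58 and -0.39, and neither passed (adjusted p = 0.928 and 0.0708). SDP1, a phosphatase of Slt2, had -0.53, 1.01 and 1.06 (adjusted p = 0.300).

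Among 18 other wall proteins 5 rose and 2 fell, 27.8% and 11.1%, beside 9.14% and 11.9% of all genes. SPI1, a stress-induced GPI protein related to SED1, was highest with 1.05, 2.24 and 2.24 (1.84 ± 0.68, adjusted p = 0.0112). The yapsin genes YPS6 (0.73, 1.72 and 1.78) and YPS5 (0.25, 1.19 and 1.27) rose, as did the spore wall gene SPS22 (1.28, 0.83 and 1.42) and TOH1 (0.65, 1.22 and 0.58). In SPI1, YPS6 and YPS5 hybridisation 1 was the lowest, as in KDX1 and PST1. MKC7, another yapsin gene, fell (-1.28, -0.67 and -1.14), as did TOS6 (-1.40, -0.70 and -0.65). Of 4 other TIR and DAN genes, PAU23, once named DAN2, rose (1.78, 0.87 and 0.88) and 0 fell, and an unadjusted p under 0.05 was found for 2, PAU23 and PAU24, both above 0. PAU24, once named DAN3, had 1.79, 0.38 and 0.56 (adjusted p = 0.0706), TIR3 had -0.35, -0.29 and -0.59 (adjusted p = 0.148), and TIR4 had -0.16, -0.20 and 0.01 (adjusted p = 0.660). Leaving out arrays moved these counts. Without hybridisation 1, by the pooled variance described above, 17 of the 76 genes were called higher and 12 lower, beside 20.8% and 21.9% of all genes. Leaving out hybridisation 2 gave 7 and 7, beside 6.97% and 7.35%. Leaving out hybridisation 3 gave 0 and 0, beside 0.0187% and 0%.

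**Figure D5:**
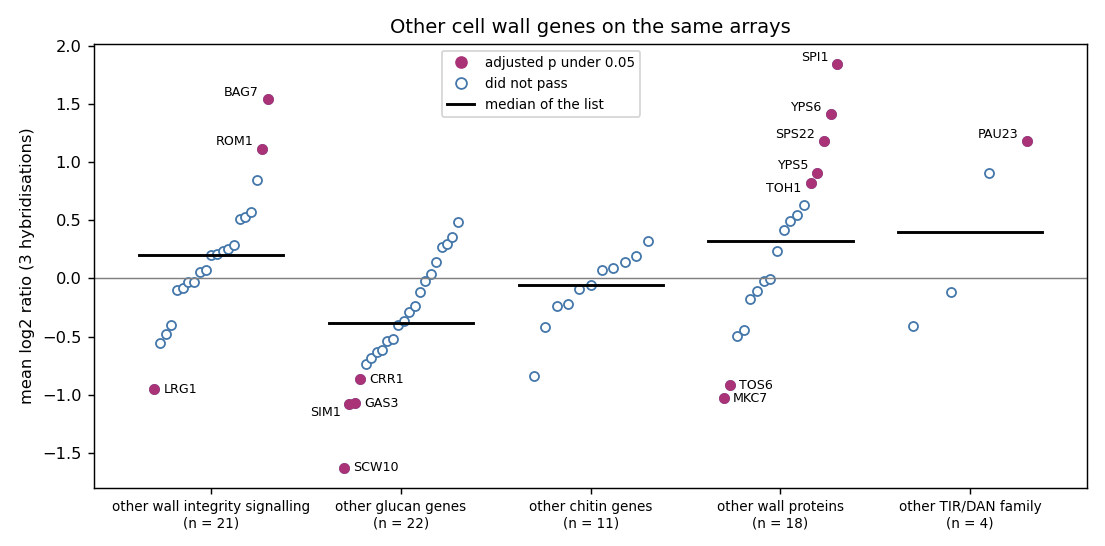
Mean log2 ratio over the 3 hybridisations (vertical axis) for 76 other wall genes in 5 lists, with genes at an adjusted p under 0.05 by limma filled and named and the median of each list as a black line. SCW10 at -1.63 and SPI1 at 1.84 are the lowest and highest.

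Several genes of the set are read at set times of the cell cycle, in mating or without oxygen, and markers of these states were read on the same arrays. Of 9 genes of G2 and mitosis, CLB2 (-1.54 ± 0.57), CLB1 (-1.37 ± 0.71) and CDC5 (-0.86 ± 0.46) fell and 0 rose, with list medians of -0.35, -0.26 and -0.49 in the 3 hybridisations. The other 6 of the 9 did not pass, 2 of the 9 means were above 0, and the median of the means was -0.14. CHS2, the septum enzyme expressed at mitosis, was among the genes of the set that fell, and a link to this list was not tested. Of 11 genes of G1 and S phase, MCD1 (-0.83 ± 0.48) fell and 0 rose, all 11 means were below 0, and the medians were -1.19, -0.34 and -0.60. At an unadjusted p under 0.05, 7 of these 11 and 4 of the 9 genes of G2 and mitosis were lower and 0 higher. The share over all genes in either direction was 38.6%, and by adjusted p 9.14% of all genes were called higher and 11.9% lower. Of 10 genes of late mitosis and early G1, 0 were called by limma and 0 had an unadjusted p under 0.05. The part of these cell cycle genes in the ratios of wall genes was not tested.

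Of 16 mating markers, PRM4 (1.23 ± 0.07) rose and STE3 (-1.57 ± 0.36), PRM1 (-1.28 ± 0.42) and PRM3 (-0.94 ± 0.05) fell, with medians of -0.13, -0.43 and -0.44. MID2, PRM5 and CHS1, which mating pheromone is known to induce, were not called. Of 12 meiosis markers SPS4 (-0.95 ± 0.38) fell and 0 rose, with medians of 0.16, -0.18 and 0.33, and SPS22 is a gene of sporulation. Of 9 genes induced without oxygen outside the wall, CYC7 (1.68 ± 0.72) rose and ERG3 (-1.04 ± 0.63) fell, with medians of 0.20, -0.21 and -0.11. Of 7 regulators of such genes, UPC2 (-0.93 ± 0.21), an activator of DAN and TIR genes, fell and 0 rose, with medians of -0.09, -0.44 and -0.53. ROX1, a repressor of hypoxic genes, had 1.16, 0.68 and 0.11 (adjusted p = 0.0948). At an unadjusted p under 0.05, 1 mating marker was higher and 7 lower, and 3 meiosis markers were higher and 1 lower. These counts were 2 and 2 for hypoxic genes and 1 and 3 for the regulators, beside 38.6% of all genes in either direction. By adjusted p over the 3 hybridisations, 9.14% of all genes were called higher and 11.9% lower. Without hybridisation 1, where 20.8% of all genes were called higher and 21.9% lower by the pooled variance, the counts were 0 higher and 4 lower for G2 and mitosis, 0 and 6 for G1 and S phase, 1 and 9 for mating, 3 and 2 for meiosis, 2 and 2 for hypoxic genes, 0 and 3 for the regulators, and 0 and 0 for late mitosis and early G1. Without hybridisation 2, in the same order, they were 0 and 2, 0 and 4, 2 and 2, 1 and 1, 2 and 2, 0 and 1, and 0 and 0, beside 6.97% and 7.35% of all genes. Without hybridisation 3 no gene of these lists was called by limma, where 1 of all genes was. The part of these states in the ratios of wall genes was not tested.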

How the data were processed

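The table held 6 columns of ratios that the authors deposited for 6912 features, 2 scans of each of 3 hybridisations. The authors normalised each scan by LOWESS over features with flag 0, per the labels' descriptions, and the values are read here as log2 ratios. How the spots were read and their background removed is not given in the sources used here. No spot intensities were used, so dim spots were not filtered and depth does not apply; the number of arrays limits precision.

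The platform annotation named 1 gene for 5513 features, several for 0 and none for 1399. Symbols were updated through a RefSeq gene list (assembly R64) for 5508 features. Scans were averaged per hybridisation, a single scan standing where the other had no value, then features per gene. Of 5365 named genes, 5349 had a value in all 3 hybridisations and were tested for a mean other than 0 in R 4.3.3 by the moderated two-sided test of limma 3.58.1, at an adjusted p of 0.05. Intervals are limma's and are not adjusted. The fit was tested on simulated data with far fewer changed genes than were called here. A shift near the size of the called means of the set was not recovered there, and a larger one, beyond any mean of the set, mostly was. With fewer changed genes the adjustment is stricter, so that outcome does not measure recovery in these data. All 33 members were to be named, with, of the wider lists, up to 4 called genes per list and direction; other genes named were chosen after their values were seen. Members, classes and lists were chosen with earlier results of these data known.

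Nothing but the series' design text says that the samples are independent, so p-values refer to these 3 arrays alone. In the main fit each gene had 2 residual degrees of freedom, to which limma added a median prior of 4.81 from all genes. The p-values therefore rest more on the spread pooled over all genes than on each gene's own. Without moderation, 0 genes were called. Every array compares treated with untreated RNA directly, so the pairing lies within the ratio. Motif and protein comparisons that had been planned were not made. Alternatives covered hybridisations and scans left out, scaling, the test and hybridisation as a block.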

Additional observations from a re-analysis of the deposited data

How the results depend on the processing

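With 3 arrays and no intensities, precision is limited by hybridisation 1 differing from the other two. Over the 3 settings that leave out a hybridisation, members called higher ranged from 0 to 4 and lower from 0 to 9, the highest counts from the fit with 1 pooled variance. The range of single genes in these settings was -0.24 to 0.29 for RLM1, -0.077 to 0.12 for MID2, -0.33 to 0.036 for CRH1, -0.19 to 0.60 for TIR2 and -0.18 to 0.37 for SLT2, none called.

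Of 31 genes, 2 rose and 3 fell with the high power scan alone (23 measured), beside 10.1% and 11.2% of all genes. With the low power scan alone (26) it was 0 and 3, beside 11.9% and 12.1%, and when hybridisation 2 was read from its high power scan (24) 2 and 2, beside 9.8% and 10.6%. With genes read in all 6 scans (18 measured) and with scans within 0.5 (9 measured) 1 rose and 0 fell, beside 10.8% and 9.54% and 10.8% and 10.6% of all genes, since the 5 genes that fell were not among those measured. Scaling between arrays gave 2 higher and 6 lower, beside 12.6% and 15.3% of all genes, and quantile normalisation 1 and 6, beside 12.1% and 15%. A minimum fold of 1.2 gave 0 and 2, beside 4.3% and 5.31%, and trend and robust moderation 0 and 5, beside 5.46% and 12.4%. The limma fit without moderation gave 0 and 0, as over all genes, with 6 of 31 at an unadjusted p under 0.05, beside 1251 of all 5349 genes. With the replicate block (6 scans, blocked by hybridisation) 5 rose and 6 fell, beside 15% and 17.5% of all genes, adding KDX1, WSC2, PIR3, SED1 and DAN1. Centring within blocks of feature IDs, chosen after seeing the data, left 1 and 5, beside 10.9% and 11.8%.

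The class median of the yapsins and other targets moved to 0.57 with the low power scan alone (3 genes), 0.55 with all 6 scans (2) and 0.67 with scans within 0.5 (1). That of glucan and chitin enzymes moved to -0.32 (7 genes), -0.032 (3) and -0.15 (1). With scans within 0.5 the signalling and PIR classes were WSC2 (-0.79) and PIR3 (0.53) alone.

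Signs turned for MID2 with the high power scan alone (-0.0081), with only the high power scan of hybridisation 2 (-0.080), after scaling (-0.014) and after quantile normalisation (-0.017), and with the low power scan alone for RLM1 (-0.071) and CHS1 (0.019). For single genes under settings other than leaving out a hybridisation, 319 values kept direction and side of the threshold, 11 passed it newly, 12 no longer did and 6 changed sign. Settings that changed only the test, or only dropped genes, kept the means, so no sign could change there. Called genes not measured under a setting were not counted.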
